A study of Solanum lycopersicum with 12 samples.

Results

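In red ripe tomato fruit, 564 genes had less transcript, as a share of library counts, in every fruit of both reciprocal hybrids than in any fruit of either parental line. Among those whose names were known were LHY, a transcription factor of the circadian clock, the ethylene genes ACS4 and ETR4, the fructokinase FRK1, the invertase LIN7 and DXR, an enzyme of plastid isoprenoid supply. Under the TMM and DESeq2 scalings described below, 272 (48.2%) and 248 of the 564 stayed without overlap. ACS4, ETR4, FRK1 and DXR overlapped the parents under both. The genes were chosen by a rule on CPM (a gene's share of all counted reads of its library, scaled to a total of 1000000). The highest of 6 hybrid values had to lie under the lowest of 6 parental values, with a parental mean of at least 5 CPM, and the highest GxQ value had to exceed 2/3 of the lowest QxG value. Of 17887 genes in the table, 680 (3.8%) met the first condition. With the level condition these were 574 of 12728 (4.51%), of which 8 did not meet the condition between the hybrids, and 2 further genes were left out by the rule. Because measured values chose the members, their difference between hybrids and parents is given below as a description, without a test.

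The hybrids were Q x G and G x Q (here QxG and GxQ), which have the same parents in opposite order, and the parents were the recombinant inbred lines Querubín FCA (Q) and Gema FCA (G). Both lines descend from a cross of cultivated tomato with its wild relative S. pimpinellifolium, so each carries segments of both species. RNA was taken from the mesocarp, the fleshy fruit wall, of 3 greenhouse-grown fruits per genotype, all red ripe, and 1 library was sequenced per fruit. The labels do not say whether the fruits came from separate plants, so p-values measure the spread between fruits. Total counts were 15207931 to 25320267 per library, and 561 of the 564 genes had at least 10 counts in every library. A pair of libraries stood apart from their genotype. In the first library of QxG, 1436 genes were listed at 0, where the other 11 libraries had 31 to 338 such genes, so a 0 there is not read as absence. The third Q fruit had a TMM factor (a correction for the make-up of the library) of 0.956, and the other Q fruits 1.24 and 1.20. The libraries of G and of both hybrids had 0.884 to 1.07. The third Q fruit thus stood apart from Q but near the other genotypes, and the first 2 Q fruits had the highest factors of all. PSY1, which makes phytoene in ripening fruit, stood between 4697 and 9100 CPM in all 12 libraries.

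A hybrid that combines 2 parental genomes usually has a transcript level between those of its parents. Levels outside the parental range are called transgressive, and those under the lower parent are one class of them. Transcript levels in ripening fruit also follow the stage of ripening, which is driven by ethylene, and the time of day, which is tracked by a clock of transcription factors that repress one another. The table gives identifiers and no names. Names here come from gene lists written with their identifiers, and genes outside those lists are given by identifier alone.

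The distance of the 564 genes from the parents was moderate for most and large for a few. The mean of the 6 hybrid fruits was 60.8% of the parental mean for the median gene, with quartiles at 49.6% and 69.6% and extremes at 13.5% and 88.0%. In 380 genes the parental mean was at least 1.5 times the hybrid mean, in 146 at least 2 times and in 15 at least 4 times. Most were of moderate abundance: the median parental mean was 32.0 CPM, and 314 lay between 10 and 50 CPM. Together the 564 genes held 1.96% to 2.29% of all counts in the hybrid libraries and 3.52% to 3.64% in the parental libraries. The gap between the highest hybrid and the lowest parental fruit was small for many, at a median of 7.55% of the lowest parental value, and it reached 25% in 54 genes and 50% in 5.

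**Figure D1:**
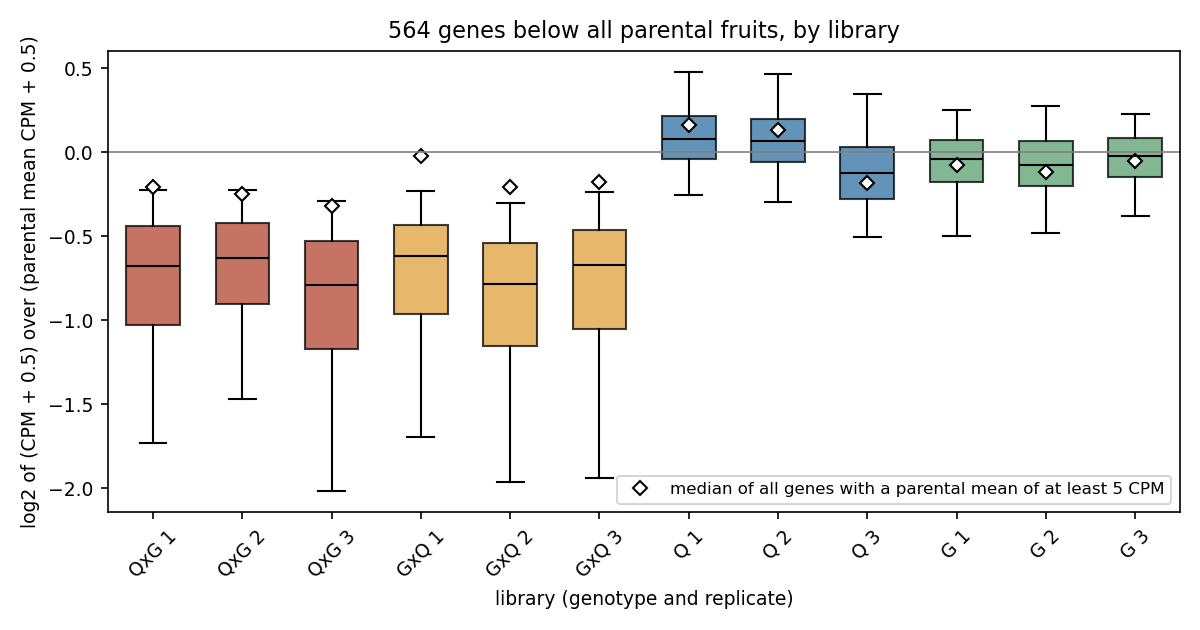
Log2 of the CPM of the 564 genes over their parental mean (0.5 CPM added to both), by library, QxG and GxQ left of Q and G; boxes show quartiles, black lines medians, whiskers the 5th to 95th percentiles, and diamonds the median of all 12728 genes with a parental mean of at least 5 CPM. Medians of the 564 genes lie between -0.79 and -0.62 in the hybrid fruits, under the diamonds of the same libraries at -0.32 to -0.02.

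Part of this distance moved with the scaling of the counts. With column totals the median of all 12728 genes at 5 CPM was -0.16 on the log2 scale in hybrids relative to parents, and -0.01 with TMM and 0.01 with DESeq2 size factors. The median of the 564 genes was -0.70 with column totals, -0.56 with TMM and -0.54 with DESeq2 size factors. The same rule on TMM-scaled values was met by 306 genes, 267 of them among the 564, and on DESeq2-scaled values by 275 genes, 243 of them among the 564. All 3 scalings together kept 239 genes. The mirrored rule, with all hybrid fruits above all parental fruits, was rarer: without a level condition 156 genes (0.872%) lay above. At a hybrid mean of at least 5 CPM, and with no condition between the hybrids, it gave 149 genes with column totals, 321 with TMM and 375 with DESeq2 size factors. More genes thus met the rule than its mirror with column totals and fewer with either of the other scalings. These counts are not held to the same conditions, since only the rule compares the hybrids with each other. CPM below are on column totals, as the rule has them, and log2 fold changes come from edgeR with TMM scaling.

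**Figure D2:**
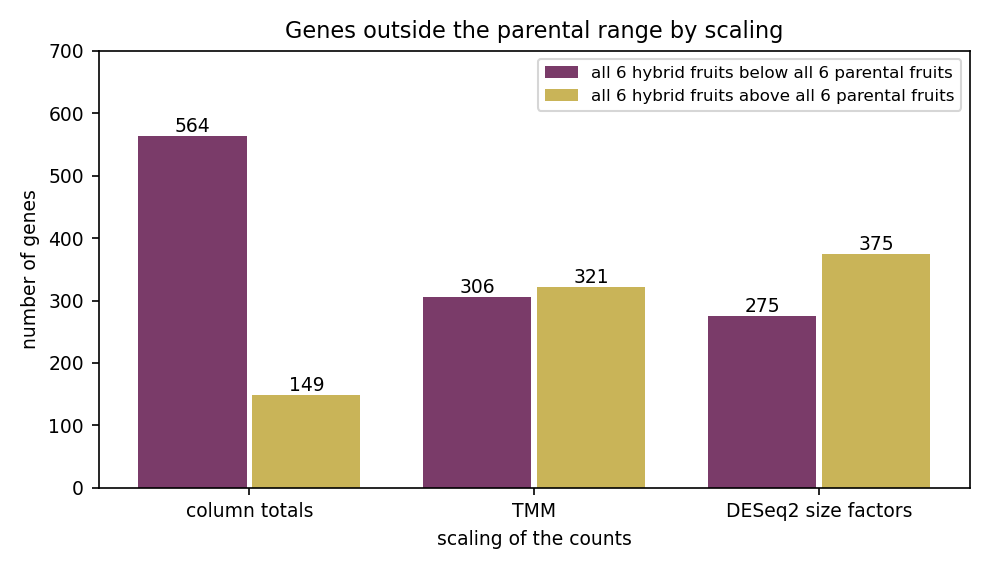
Number of genes (vertical axis) with all hybrid fruits below or above all parental fruits, under 3 scalings of the counts. The parental mean (below) or hybrid mean (above) is at least 5 CPM, and only the count below also holds the condition between the hybrids. The count below goes from 564 with column totals to 306 and 275, and the count above from 149 to 321 and 375.

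In the edgeR fit over all genes, the log2 fold change of both hybrids over the mid-parent (the average of Q and G on the log scale) had a median of -0.57 over the 564 genes, from -2.59 to -0.04, and of -0.01 over genes at 5 CPM. Of the 564, 391 were called lower at an adjusted p under 0.05, where 6.13% of all genes and 7.35% of those with a parental mean of at least 5 CPM were called lower. As the rule used this contrast, nothing is read from that count.

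LHY (Solyc10g005080), a MYB-like transcription factor that acts in the morning part of the clock and represses evening genes, had the widest gap among the members held in the gene lists. It stood at 86.0, 97.7 and 66.9 CPM in QxG and 49.6, 24.5 and 28.3 CPM in GxQ, against 256, 255 and 180 CPM in Q and 235, 244 and 283 CPM in G. Every hybrid fruit was far under every parental fruit, and the GxQ fruits were all under the QxG fruits. The hybrid mean was 24.3% of the parental mean, and the log2 fold change over the mid-parent was -2.04 (SE 0.147), with -1.34 for QxG and -2.73 for GxQ. LHY stayed without overlap under each scaling, but under TMM and DESeq2 scaling it no longer met the condition between the hybrids (highest GxQ over lowest QxG value 0.611 and 0.598, against 0.742 with column totals), nor did it when the third fruit of QxG, or the first of GxQ, was left out. Q and G averaged 230.2 ± 43.4 and 254 ± 25.7 CPM of LHY (SD, n = 3 each; edgeR adjusted p = 0.298).

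Of the other 9 genes of the clock and light list, edgeR called 3 higher and 0 lower in the hybrids than in the mid-parent, where 5.3% (higher) and 6.13% (lower) of all genes, and 6.76% and 7.35% of genes at 5 CPM, were called. An unadjusted p under 0.05 was found for 4 higher and 1 lower, and DESeq2 called 4 and 0. The 3 were both listed copies of GI, an evening gene of the clock, and ELF3, a part of the evening complex. GI on chromosome 12 (Solyc12g056650) stood at 133, 135 and 143 CPM in QxG and 242, 212 and 249 CPM in GxQ, against 68.2, 48.6 and 59.9 CPM in Q and 59.2, 74.6 and 69.8 CPM in G. All hybrid fruits were above all parental fruits, and GxQ fruits were the highest (log2 fold change 1.65, SE 0.122, adjusted p = 5.96e-05). GI on chromosome 4 (Solyc04g071990) averaged 112 ± 19.8 CPM in the hybrids and 63.6 ± 9.50 CPM in the parents (SD, n = 6 each; edgeR log2 fold change 0.96, adjusted p = 0.00287). ELF3 stood at 18.2, 12.05 and 12.4 CPM in QxG and 33.1, 36.5 and 26.8 CPM in GxQ, against 23.0, 18.4 and 10.8 CPM in Q and 13.5, 11.8 and 11.9 CPM in G. The GxQ fruits were the highest and the QxG fruits lay within the parental range. The contrast over both hybrids was called (log2 fold change 0.70, adjusted p = 0.0147) and missed the threshold with column totals (adjusted p = 0.0780). TOC1, an evening repressor of LHY, averaged 32.1 ± 8.30 CPM in the hybrids and 42.6 ± 15.7 CPM in the parents (SD, n = 6 each; edgeR adjusted p = 0.259). The labels give no hour of harvest, so time of day and genotype cannot be told apart.

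**Figure D3:**
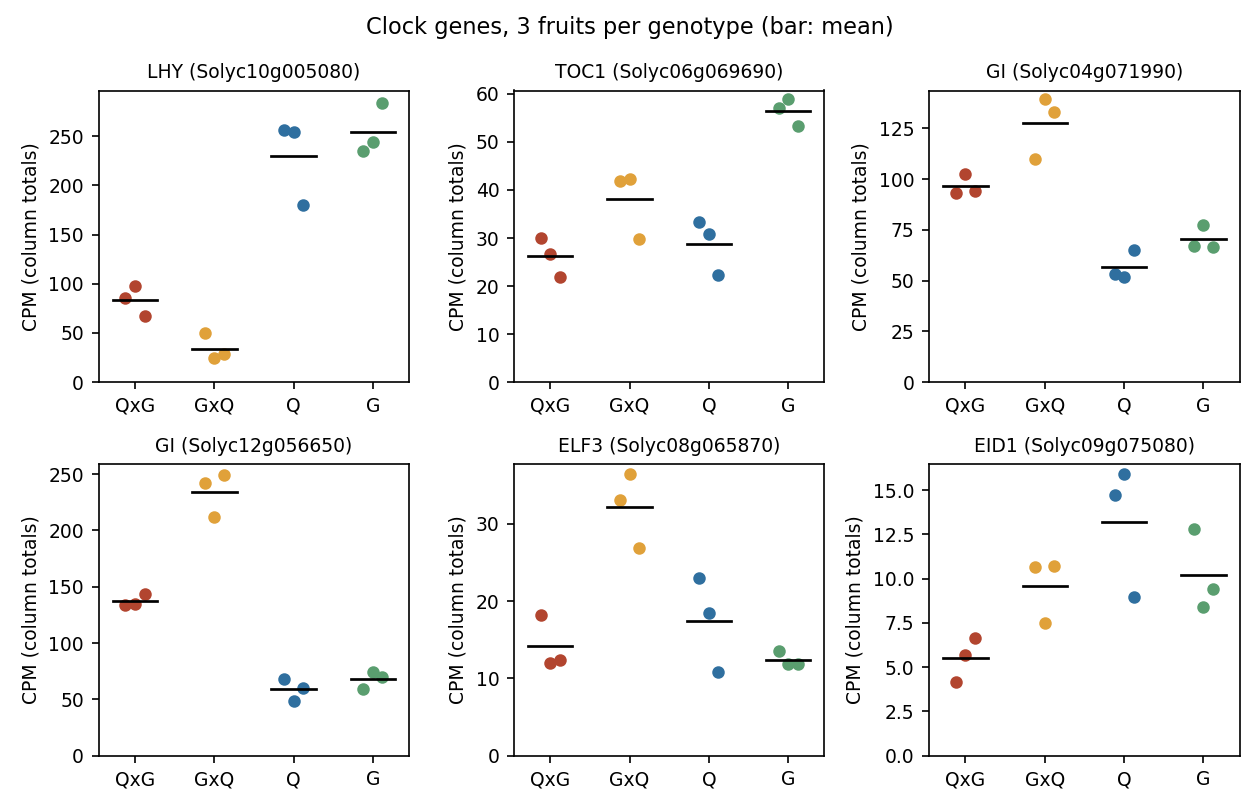
CPM of 6 clock genes (vertical axis, from 0) in 3 fruits each of QxG, GxQ, Q and G; points are fruits and bars are means. LHY lies between 24.5 and 97.7 CPM in the hybrids and between 180 and 283 CPM in the parents, while both GI genes are higher in all hybrid fruits.

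ACS4 and ETR4 act in ethylene, the gas that drives tomato ripening. ACS4 (Solyc05g050010) makes the precursor of ethylene during ripening. It stood at 139, 91.6 and 60.6 CPM in QxG and 52.0, 149.6 and 254 CPM in GxQ, against 316, 416 and 507 CPM in Q and 376, 288 and 267 CPM in G. The third GxQ fruit came within 4.89% of the lowest parental fruit, and the other hybrid fruits lay far lower. ETR4 (Solyc06g053710), an ethylene receptor that restrains the response until it is degraded, stood at 933, 688 and 412 CPM in QxG and 419, 648 and 427 CPM in GxQ, against 1019.7, 1041 and 1105 CPM in Q and 1337, 1431 and 1178 CPM in G. The first QxG fruit was the nearest to the parents. The log2 fold changes over the mid-parent were -1.42 for ACS4 (SE 0.350) and -0.88 for ETR4 (SE 0.206). Both genes overlapped the parents under TMM scaling: the highest hybrid value of ACS4 was 269 CPM, against a lowest parental value of 255 CPM, and that of ETR4 959 CPM, against 825 CPM.

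Of the other ripening and ethylene genes reported here, edgeR called 2 higher in the hybrids. Over all genes 5.3% were called higher, and 6.76% of genes at 5 CPM. No count is given over the whole list, because 1 of its genes is not reported, so no direction is read for the list. ETR2 (Solyc07g056580), another ethylene receptor, averaged 68.95 ± 11.6 CPM in the hybrids and 40.6 ± 16.4 CPM in the parents (SD, n = 6 each; edgeR log2 fold change 0.98, adjusted p = 0.00258). FUL2, a MADS-box factor of ripening, averaged 118 ± 30.4 CPM in the hybrids and 90.1 ± 7.28 CPM in the parents (SD, n = 6 each; edgeR adjusted p = 0.00673). The ripening oxidase ACO1 averaged 1427 ± 765 CPM in the hybrids and 1389 ± 834 CPM in the parents, and the synthase ACS2 407 ± 264 and 874 ± 570 CPM (SD, n = 6 each; edgeR adjusted p = 0.815 and 0.131). The receptor NR averaged 982 ± 242 CPM in the hybrids and 1364 ± 320.2 CPM in the parents (SD, n = 6 each; edgeR adjusted p = 0.198). The receptor ETR1 averaged 37.1 ± 4.32 CPM in the hybrids and 40.6 ± 5.47 CPM in the parents (SD, n = 6 each; edgeR adjusted p = 0.886).

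FRK1 and LIN7 act on sugars. FRK1 (Solyc03g006860), a fructokinase that phosphorylates fructose, stood at 18.1, 26.2 and 17.8 CPM in QxG and 23.3, 18.0 and 19.1 CPM in GxQ, against 31.0, 30.2 and 29.1 CPM in Q and 35.7, 38.7 and 39.5 CPM in G. The hybrids stood alike, and G fruits were the highest. LIN7 (Solyc09g010090), a cell wall invertase that splits sucrose, is weakly expressed here. It stood at 2.43, 4.35 and 3.99 CPM in QxG and 5.05, 2.36 and 4.22 CPM in GxQ, against 11.04, 8.85 and 7.99 CPM in Q and 6.20, 6.44 and 5.85 CPM in G. Among the members held in the gene lists, LIN7 alone met the rule under all 3 scalings. FRK1 overlapped the parents under TMM (highest hybrid value 28.4 CPM, lowest parental value 25.1 CPM). The log2 fold changes over the mid-parent were -0.58 for FRK1 (SE 0.117) and -0.87 for LIN7 (SE 0.213). Of the other 15 sugar genes, 2 were called lower and 1 higher. Over all genes 6.13% were called lower and 5.3% higher, and 7.35% and 6.76% of genes at 5 CPM. SUT4, a sucrose transporter, averaged 6.73 ± 1.60 CPM in the hybrids and 15.6 ± 8.74 CPM in the parents (SD, n = 6 each; edgeR adjusted p = 0.0108); its hybrid fruits reached 8.50 CPM and the lowest parental fruit had 8.29 CPM, so it did not meet the rule. The hexokinase HXK1 was called lower too (adjusted p = 0.0398), and this call ended without any 1 of 7 libraries, 5 of them parental (adjusted p up to 0.0979). TIV1, the vacuolar invertase, was called higher than the mid-parent (adjusted p = 0.00852). It lay at 6603 to 15363 CPM in the hybrids, against 1053 to 1754 CPM in Q and 11712 to 15218 CPM in G, so the hybrids stood near G. FRK2, the other listed fructokinase, averaged 61.8 ± 17.0 CPM in the hybrids and 64.3 ± 14.1 CPM in the parents (SD, n = 6 each; edgeR adjusted p = 0.777).

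DXR (Solyc03g114340) is the second enzyme of the plastid pathway that supplies isoprenoids, among them the carotenoids of red fruit. It stood at 66.2, 80.1 and 68.5 CPM in QxG and 37.5, 51.6 and 67.8 CPM in GxQ, against 84.4, 81.3 and 128 CPM in Q and 102, 91.7 and 108 CPM in G. The second QxG fruit nearly reached the second Q fruit, and under TMM the groups overlapped (highest hybrid value 86.8 CPM, lowest parental value 67.6 CPM). The log2 fold change over the mid-parent was -0.56 (SE 0.202). Of the other 19 carotenoid and isoprenoid genes, 2 were called lower and 1, the dioxygenase gene CCD1A, higher. The shares over all genes were 6.13% (lower) and 5.3% (higher), and 7.35% and 6.76% over genes at 5 CPM. ZISO, an isomerase between phytoene and lycopene, averaged 909 ± 230.4 CPM in the hybrids and 1821 ± 348 CPM in the parents (SD, n = 6 each; edgeR log2 fold change -0.87, adjusted p = 0.0137); its second QxG fruit, at 1363 CPM, was above the lowest Q fruit, at 1338 CPM. NCED1, which opens the path to abscisic acid, had an adjusted p of 0.0359, a call that ended without any 1 of 9 libraries (adjusted p up to 0.0843). For DXS1, which acts just before DXR in that pathway, the log2 fold change was -0.39 (adjusted p = 0.2097), and for PSY1 it was -0.34 (adjusted p = 0.351). The CCD1A call (adjusted p = 0.0321) was lost with column totals (adjusted p = 0.217) and without any 1 of 6 libraries (adjusted p up to 0.0776).

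**Figure D4:**
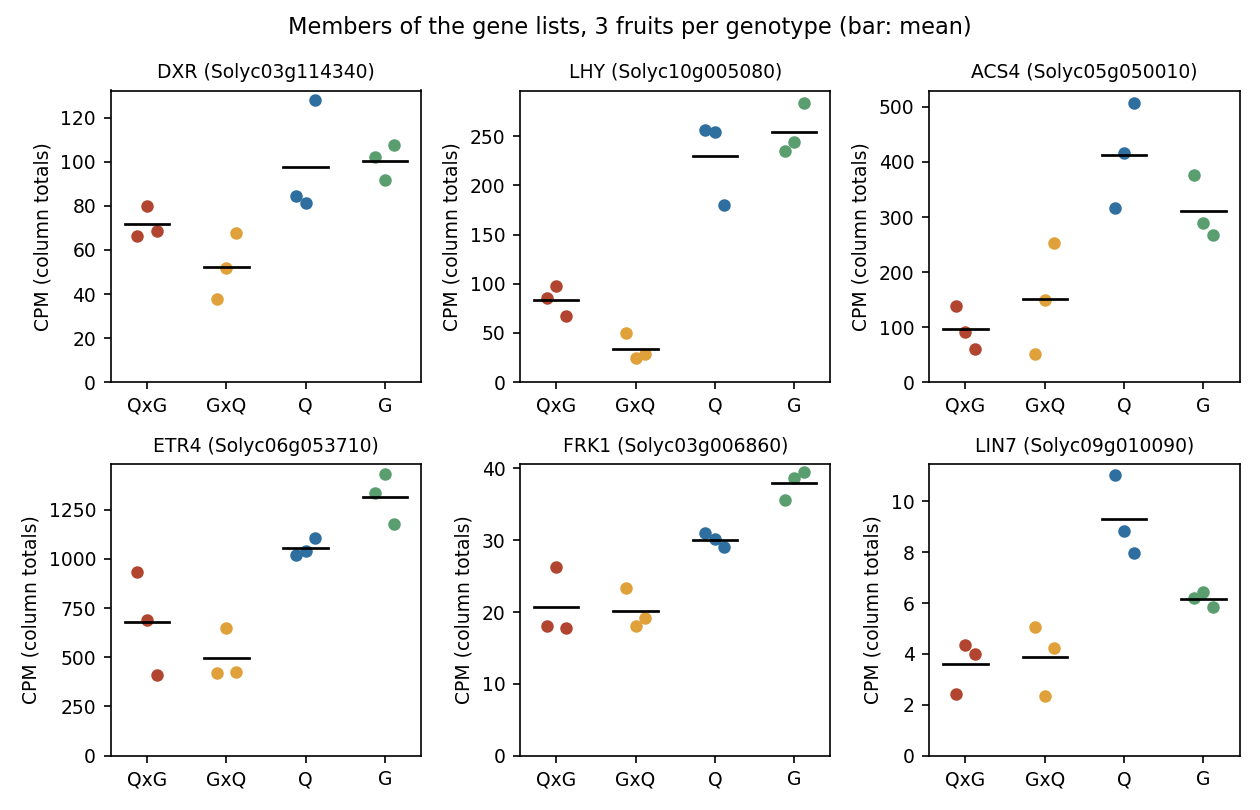
CPM (vertical axis, from 0) of the 6 members held in the gene lists, in 3 fruits each of QxG, GxQ, Q and G; points are fruits and bars are means. LHY has a wide gap between hybrids and parents, at 45.7% of the lowest parental value. DXR and ACS4 have narrow ones, at 1.42% and 4.89%.

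The other lists held no member. PL, a pectate lyase that softens fruit, had all hybrid fruits under all parental fruits but was among the 8 genes that did not meet the condition between the hybrids. It stood at 2316, 1715 and 1709 CPM in QxG and 747, 527 and 646 CPM in GxQ, against 3173, 3180.2 and 4984 CPM in Q and 3429, 3103 and 2446 CPM in G. Of 11 cell wall genes, PL and the mannanase MAN4 were called lower (adjusted p = 0.00219 and 0.0175) and 0 higher by edgeR, with 7 lower and 1 higher at an unadjusted p under 0.05 and 6 and 1 by DESeq2. For hybrids against mid-parent, edgeR called 6.13% of all genes lower and 5.3% higher, and 7.35% and 6.76% of genes at 5 CPM. The shares of all genes unadjusted and by DESeq2 are not given, so nothing is read from such counts for any list. In the organic acid and GABA list 0 of 7 were called lower and 2 higher, the glutamate decarboxylase GAD1 and an aconitase. At an unadjusted p under 0.05 and by DESeq2, 0 were lower and 2 higher. In the volatile list 1 of 10 was lower, the acyltransferase AAT1, and 1 higher, the lipase LIP8. In the ascorbate list 1 of 6, GME1, was lower and 0 higher (2 lower and 0 higher unadjusted, 1 and 0 by DESeq2). The AAT1 and GME1 calls (adjusted p = 0.0453 and 0.0391) each ended without any 1 of at least 9 libraries. In the heat shock list 0 of 10 were lower and 3 higher, all small heat shock genes (1 lower and 5 higher unadjusted, 0 and 5 by DESeq2). The call for Solyc06g076570 among them (adjusted p = 0.0414) ended without any 1 of 9 libraries (adjusted p up to 0.0977). By edgeR no gene was called in either direction among 6 phenylpropanoid and 2 plastid development genes; 0 and 2 were lower unadjusted and by DESeq2, and 0 were higher.

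Markers of other fruit tissues were followed as a check on the dissected mesocarp. The 2 of 3 epidermis markers in the table, CER6 of wax synthesis and the regulator CD2, summed to 4.63 to 8.60 CPM in QxG and 4.01 to 15.1 CPM in GxQ, against 12.8 to 26.5 CPM in Q and 10.98 to 11.5 CPM in G. CER6 was called lower in the hybrids (adjusted p = 0.0288, and up to 0.0802 without any 1 of 6 libraries), with 3.36 to 15.4 CPM in Q and under 1 CPM in each hybrid and G fruit, and CD2 was not (adjusted p = 0.732). The 1 of 6 seed markers in the table, a vicilin gene, was at 0 to 1.28 CPM in QxG and 0.551 to 1.59 CPM in GxQ, against 0.999 to 1.76 CPM in Q and 0.790 to 1.45 CPM in G. The part of tissue make-up in the results was not tested. In RNA from whole mesocarp, fewer cells of a type and less RNA per cell cannot be told apart.

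The members farthest under the mid-parent were mostly genes outside the lists. Solyc05g011890 on chromosome 5 was the lowest. It stood at 9.30, 12.9 and 12.7 CPM in QxG and 7.84, 10.02 and 11.6 CPM in GxQ, against 99.6, 173 and 59.5 CPM in Q and 58.6, 43.4 and 42.4 CPM in G. The hybrid fruits were close to each other, at 13.5% of the parental mean, and the parental fruits were spread widely, with Q above G on average. Solyc05g055940 stood at 12.8, 8.59 and 6.397 CPM in QxG and 9.32, 4.06 and 5.55 CPM in GxQ, against 47.9, 49.4 and 27.8 CPM in Q and 34.9, 42.6 and 40.4 CPM in G. The parental lines were alike in this gene and the hybrids had 19.2% of their level. Solyc07g045090 stood at 11.5, 14.3 and 16.4 CPM in QxG and 32.2, 11.2 and 25.6 CPM in GxQ, against 136, 153 and 75.8 CPM in Q and 60.5, 41.4 and 78.1 CPM in G. Here the first GxQ fruit was the highest hybrid and the second G fruit the lowest parent.

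Below 30 CPM in every library were Solyc09g060110, Solyc07g018070, Solyc08g074917, Solyc07g063610, Solyc04g082280 and Solyc01g079150, with hybrid means of 1.03 to 3.11 CPM and parental means of 6.39 to 16.3 CPM. Solyc04g082280 had 0 counts in the first QxG library, the library with many genes at 0, so its low value there is uncertain. Solyc04g008650 averaged 3.93 CPM in the hybrids and 19.6 CPM in the parents, and Solyc10g052490 averaged 9.77 CPM in the hybrids and 43.9 CPM in the parents. The second Q fruit of Solyc10g052490 had 19.3 CPM, near the second QxG fruit at 18.4 CPM. With LHY these are the 12 members with the lowest log2 fold change, from -2.59 to -2.04. Under TMM scaling LHY, Solyc10g052490 and Solyc04g082280 no longer met the rule and the other 9 did; with DESeq2 size factors Solyc01g079150 was lost as well.

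The 12 most abundant members included ETR4 and ACS4. Solyc03g113270 stood at 855, 1112 and 851 CPM in QxG and 523, 819 and 911 CPM in GxQ, against 1122, 1319.7 and 1753 CPM in Q and 2576, 2371 and 2003 CPM in G. The fruits of G were the highest and the first Q fruit was close to the second QxG fruit. Solyc02g085350 stood at 1097, 863 and 760.7 CPM in QxG and 754, 673 and 822 CPM in GxQ, against 1270.0, 1349 and 1501 CPM in Q and 1482, 1576 and 1335 CPM in G. Solyc11g011380 stood at 893, 729 and 832 CPM in QxG and 463, 425 and 766 CPM in GxQ, against 1283, 1221 and 1922 CPM in Q and 1003, 1133 and 1028 CPM in G. The last of these kept its place in the rule under TMM and DESeq2 scaling. Solyc03g025720 averaged 41.0% of the parental level and kept its place as well, with 386 CPM in the third Q fruit and 376 CPM in the third GxQ fruit. Solyc05g053210 was even among parents, at 432 to 482 CPM, and lay between 252 and 360.4 CPM in the hybrids. It met the rule under each scaling. Solyc12g010320, Solyc03g111970, Solyc05g055770 and Solyc05g008200 had hybrid means of 56.0% to 75.7% of the parental mean and overlapped the parents or missed the rule under TMM; Solyc06g053620, at 43.9%, met it under TMM but not with DESeq2 size factors.

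Which fruits lay nearest to the other genotypes varied among the members, as a description of the values the rule used. The highest hybrid value of a member came from the first QxG fruit in 136 genes, from the second in 134 and from the third in 41. It came from the first GxQ fruit in 131, from the second in 43 and from the third in 79. The lowest parental value came from the third Q fruit in 211 genes, from the others of Q in 41 and 43, and from the G fruits in 86, 128 and 55. The third Q fruit thus most often set the lower parental limit. Without that library 1040 genes met the rule, all 564 among them, and without the first QxG library 860 genes, 563 of the 564 among them.

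QxG and GxQ had close means in most members. They were within 1.5-fold of each other in 513 of 564 genes, and QxG had the lower mean in 269. The log2 fold change of QxG over GxQ had a median of 0.09, with quartiles at -0.08 and 0.27, and extremes at -1.47 and 1.39. The upper extreme was LHY. Over genes at 5 CPM the median was -0.01, with quartiles at -0.30 and 0.26. The share of all genes within 1.5-fold is not given, and the rule limits how far GxQ may lie under QxG. These values are therefore a description.

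The difference between Q and G is another contrast than that of the rule, but not free of it, since the rule used the lowest of the 6 parental values. The calls below are those of the fit over all genes, and nothing is read from their share among the members. By edgeR 17 of the 564 genes (3.01%) were called in Q over G, where 7.31% of all genes and 7.74% of those with a parental mean of at least 5 CPM were called. Of the 17, 7 were higher in Q, where 4.51% of all genes and 4.24% of genes at 5 CPM were, and 10 were lower, where 2.81% and 3.5% were. By construction a gene whose lower parent is far under the other needs hybrids lower still, which can lower that share. The median log2 fold change of Q over G was -0.14 for the members and -0.06 for genes at 5 CPM. Both medians changed sign with column totals (0.05 and 0.13). In 511 members the Q and G means were within 1.5-fold of each other. The share of all genes within that fold is not given, so nothing is read from this count. Quartiles of the log2 fold change of Q over G were -0.30 and 0.07 for the members. For genes at 5 CPM they were -0.31 and 0.23.

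Solyc01g095470 had the smallest adjusted p between the parents. It stood at 151, 148 and 171 CPM in Q, against 69.8, 61.4 and 68.8 CPM in G, and at 34.2 to 56.7 CPM in the hybrids, so the hybrids lay under G, the lower parent (log2 fold change of Q over G 1.06, SE 0.182, adjusted p = 0.00693). Solyc05g053370 and Solyc08g068290 were higher in Q too, at 8.18 ± 1.89 against 3.12 ± 0.0376 CPM and at 38.2 ± 10.2 against 14.1 ± 1.65 CPM (SD, n = 3 each; edgeR adjusted p = 0.0218 and 0.0253). Solyc02g085740 was lower in Q, at 30.3, 26.6 and 29.5 CPM in Q, against 47.3, 47.8 and 47.9 CPM in G, and at 14.3 to 22.7 CPM in the hybrids (log2 fold change -0.90, SE 0.173, adjusted p = 0.0116). Solyc05g009080 and Solyc04g080100 were lower in Q as well (log2 fold change -1.10, adjusted p = 0.0172, and -0.68, adjusted p = 0.0216). Solyc07g063610, one of the members farthest under the mid-parent, stood at 22.2, 24.2 and 27.8 CPM in Q, against 5.63, 5.59 and 8.69 CPM in G (edgeR adjusted p = 0.0440). Of these 7 calls, that for Solyc01g095470 held without any 1 library; each of the others ended without 1 of several parental libraries, and that for Solyc04g080100 also with column totals. The number of members called was 1, 2 and 30 without the Q libraries in the order given above, where 3.06%, 2.76% and 8.81% of all genes were called. It was 1, 3 and 3 without the G libraries, where 1.87%, 2.19% and 2.57% were, and 28 without the first QxG library, where 12.3% were. With the replicate number as a block in the hybrids, whose same-numbered libraries correlated positively, it was 28, where 12.01% of all genes were called.

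**Figure D5:**
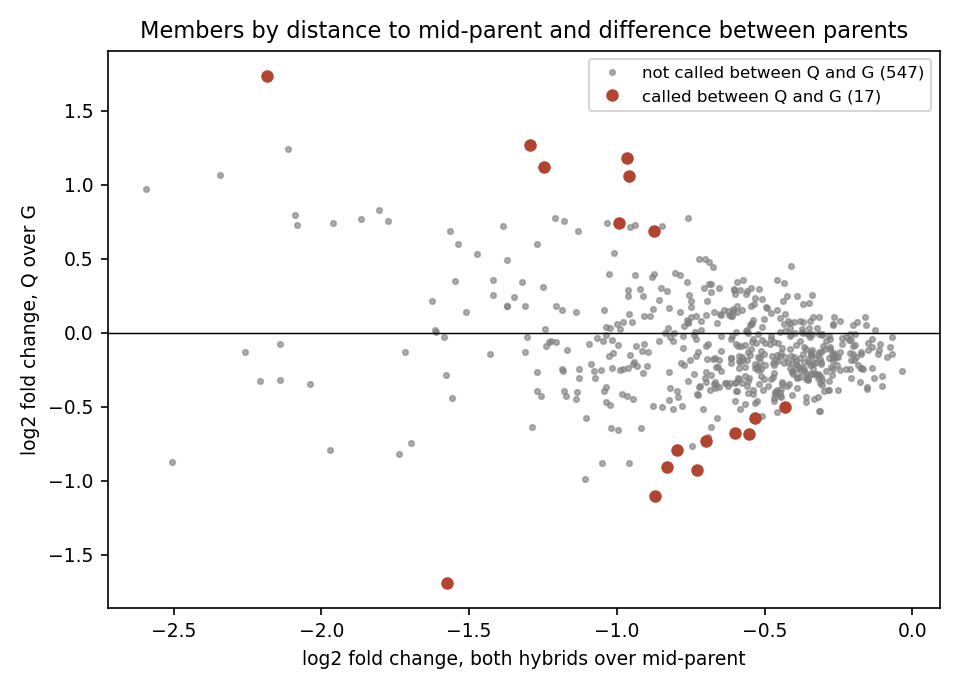
Log2 fold change of Q over G (vertical axis) against that of both hybrids over the mid-parent (horizontal axis) for the 564 genes, from edgeR with TMM scaling; red points are the 17 genes called between Q and G at an adjusted p under 0.05. The median on the vertical axis is -0.14, and the members farthest under the mid-parent are spread widely on it, up to 1.74 for Solyc07g063610.

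The members were spread over the chromosomes. Relative to genes at 5 CPM on the same chromosome, their share was 3.58% on chromosome 9 and 4.93% on chromosome 4, and chromosome 11 had the highest share, 56 of 872 genes or 6.42%. The other chromosomes lay between 3.94% and 4.64%. With 17841 genes put in order along the chromosomes by identifier, 45 members (7.98%) had another member as a direct neighbour on either side, a share given as a description. Members were 3.16% of the ordered genes, and a neighbour on each side was counted. Whether members lie together more often than other genes was not tested. These formed 21 runs, of which 19 were pairs. The longest run was Solyc11g067230, Solyc11g067240, Solyc11g067260 and Solyc11g067280 on chromosome 11, with hybrid means of 64.8%, 72.0%, 59.3% and 63.9% of the parental means. The other run of more than a pair, Solyc03g119130, Solyc03g119140 and Solyc03g119160, had 78.2%, 39.6% and 72.6%.

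Solyc02g084420 and Solyc02g084430 had a similar order of fruits. Solyc02g084420 stood at 1.17, 5.69 and 4.51 CPM in QxG and 7.73, 3.56 and 4.11 CPM in GxQ, against 19.3, 21.7 and 11.8 CPM in Q and 13.5, 11.6 and 13.98 CPM in G. Its neighbour Solyc02g084430 stood at 0.712, 4.74 and 4.40 CPM in QxG and 5.43, 2.105 and 5.23 CPM in GxQ, against 15.1, 17.5 and 9.09 CPM in Q and 13.6, 7.89 and 13.9 CPM in G. Both were lowest in the first QxG fruit and highest in the second Q fruit, and both had about the same share of the parental level, 29.1% and 29.3%. Solyc11g009000 and Solyc11g009010, with 49.5% and 45.9%, were both highest among the hybrids in the second QxG fruit, but the second Q fruit was the lowest of Q in one and the highest in the other. Whether reads of one neighbour could be counted for the other was not tested. Other neighbours differed. Solyc09g064730 had 54.4 CPM in the third Q fruit, where the other Q fruits had 20.2 and 15.7 CPM, while its neighbour Solyc09g064720 had 129 CPM in that fruit and 108 and 124 CPM in the others.

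At the edge of the rule, membership rested on differences far below the spread between fruits. Just inside were Solyc03g025550, with a highest hybrid value of 88.73 CPM and a lowest parental value of 88.74 CPM, and Solyc10g085440, Solyc09g014770 and Solyc04g051120, with gaps of 0.041%, 0.056% and 0.058% of the lowest parental value. Just outside were Solyc01g106080, with 88.073 CPM in a hybrid fruit and 88.072 CPM in a parental fruit, and Solyc10g061955, Solyc10g085060 and Solyc09g098530. At the level limit, Solyc05g013280 was inside with a parental mean of 5.09 CPM and Solyc09g031595 outside with 4.97 CPM.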

How the data were processed

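The table the authors deposited holds raw counts, 1 whole number per gene and library; the values were taken as raw counts because all are whole and column totals differ. The submitters' processing notes name FastQC, fastp 0.21, HISAT2 2.1.0, featureCounts, Subread, edgeR and R 4.0.3 without their roles. Genome build, annotation and strand setting are not stated in the labels or file header, so reads of overlapping, antisense or near-identical genes may not be separable. All 12 columns matched samples by name.

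CPM were computed on column totals for the rule. All tests were edgeR (4.0.16, R 4.3.3) quasi-likelihood F tests with TMM scaling on 17887 genes and 12 libraries, 1 mean per genotype, Benjamini-Hochberg adjusted over all genes; standard errors were taken as log2 fold change over square root of F. filterByExpr removed 0 genes. DESeq2 (1.42.0) was an alternative. Scripts were tested on simulated counts. Libraries of QxG and GxQ with the same replicate number had positive correlations of deviations (0.164, 0.333 and 0.210, 0.5 CPM added before the log2). No other pair of genotypes was positive for every number, but Q and GxQ had 0.273 and 0.235 for numbers 1 and 3. Unlike numbers were not compared, so pairing itself was not tested.

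No identifier matched the RefSeq table (assembly SLM_r2.1, 41476 genes; 0 matched). Names rest on 13 lists of 143 genes, of which 127 were in the table (carotenoid, ripening and ethylene, cell wall, sugar, organic acid and GABA, volatile, phenylpropanoid, ascorbate, heat shock, clock and light, plastid development, epidermis, seed). Of 93 names that match 1 RefSeq gene, 89 lay on the chromosome of the identifier; LHY and GI could not be checked this way. Members and lists were chosen with earlier results of these data known. The named genes were members held in lists, the 12 lowest against the mid-parent, the 12 most abundant, 3 called per direction between Q and G, those at the edges of the rule, and examples of members next to other members. The printed list genes that are no members were chosen after their values were seen. 1 gene of the ripening and ethylene list is not reported here.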

Additional observations from a re-analysis of the deposited data

How the results depend on the processing

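The number of genes that met the rule was 564. It was 306 with TMM and 275 with DESeq2 size factors, 585 to 1040 without 1 library, and 1547 without the first QxG and the third Q library together, an alternative chosen after seeing the data; fewer libraries make the rule easier to meet. The mirrored count of 149 was 321, 375 and 274 under TMM, DESeq2 size factors and without those libraries. Genes of the lists that met the rule were 6, and 1 with TMM and 1 with DESeq2 size factors. The median log2 fold change of the members over the mid-parent was -0.57, and -0.72 with column totals; that of QxG over GxQ was 0.09, and 0.011 with column totals and 0.17 without both libraries.

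Between Q and G, the 17 members and 1308 genes called became 44 and 2643 by DESeq2, 34 and 2551 with only parental libraries, 1 to 30 and 335 to 2207 without 1 library, and 62 and 2936 without both libraries. With the replicate number as a block over 12 libraries they were 19 and 1320, and with the block in the hybrids, added after seeing the data, 28 and 2148. The cause of these shifts was not tested. The counts that leave out a parental library rest on 5 parental libraries. Between Q and G, no named member that was called in the main fit or an alternative had the opposite sign in the other. Signs of members called in neither were not compared. The block over 12 libraries left the median over the mid-parent at -0.58. Depth limits the weakest members: 3 of 564 had under 10 counts in a library.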
